A study of Mus musculus with 16 samples.

Results

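The Ca2+/calmodulin-dependent kinases (CaM kinases) outside the *Camk2* genes, together with the endogenous inhibitors of CaMKII, were examined in RNA from *gastrocnemius*, a calf muscle, of HSALR and FVB mice. The 8 genes were *Camkk1* and *Camkk2*, *Camk1*, *Camk1d* and *Camk1g*, *Camk4*, and *Camk2n1* and *Camk2n2*. They were chosen by name, with earlier results of these data known, and all 8 were found among the 24454 genes of the count table. HSALR mice are a mouse model of myotonic dystrophy type I: they come from a single transgenic line, were kept homozygous, and carry a human skeletal actin gene with a long stretch of CTG repeats, whose promoter restricts the repeat RNA to skeletal muscle. FVB/N mice, the background strain without the transgene, were the controls. Mice were 3 months old and received either vehicle or AICAR, a drug that activates AMP-activated protein kinase (AMPK), at 500 mg per kg for 7 days. There were 5 HSALR mice with vehicle, 5 HSALR mice with AICAR, 3 FVB mice with vehicle and 3 FVB mice with AICAR, each with its own library.

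CaM kinases form a signalling cascade: Ca2+-loaded calmodulin activates the upstream kinases CaMKK1 and CaMKK2, which phosphorylate and so switch on CaMKI and CaMKIV, and CaMKK2 also phosphorylates AMPK. CaMKII acts in parallel and keeps itself active by autophosphorylation, and the small proteins encoded by *Camk2n1* and *Camk2n2* bind the active CaMKII kinase domain and block it. In muscle, Ca2+ released at contraction is the signal read by these enzymes, and class II histone deacetylases, CREB and MEF2 are among the nuclear proteins that they regulate.

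The libraries held 64890014 to 81987726 counts each (median 73021286), and all 8 genes passed the filter on low counts that left 15487 genes to test. The human transgene was not measured here. Summed markers of myofibres reached 98818 to 156715 normalized CPM (counts scaled to library size with TMM), with all 6 markers detected, as the tissue label states. Epidermal markers set 6 libraries apart: *Krt14*, a keratin of the skin, exceeded 1 CPM in S450 of the vehicle-treated FVB mice, S448 of the AICAR-treated FVB mice, and S452, S453, S458 and S459 of the vehicle-treated HSALR mice. Because the treated HSALR mice had none of these libraries, the calls of the members, the pathway counts and the shares and ratios below are also given without the 6 libraries (the correlations are not), a fit in which S451 is the sole vehicle-treated HSALR mouse and is assumed to vary like the other mice. The 5 endothelial markers, each lower in HSALR mice after vehicle, summed to 284 to 324 CPM in the 6 FVB mice and 192 to 241 CPM in the 10 HSALR mice. In whole muscle, fewer cells of a type and less RNA per cell cannot be told apart.

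*Camk1d* and *Camk2n2* were the members that differed between the genotypes with either treatment. After vehicle, *Camk1d* was 5.70-fold and *Camk2n2* 3.41-fold higher in HSALR than in FVB mice, and the other 6 members did not pass the test. These 2 of 8 members, both higher, stand beside 26.9% of all genes tested that passed in this comparison (15.4% higher and 11.5% lower). AICAR lowered *Camk1d* in HSALR mice by 2.29-fold, and in FVB mice its change with AICAR did not pass the test. The median log2 fold change of the 8 members after vehicle was -0.02 and that of all genes tested was 0.01.

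**Figure D1:**
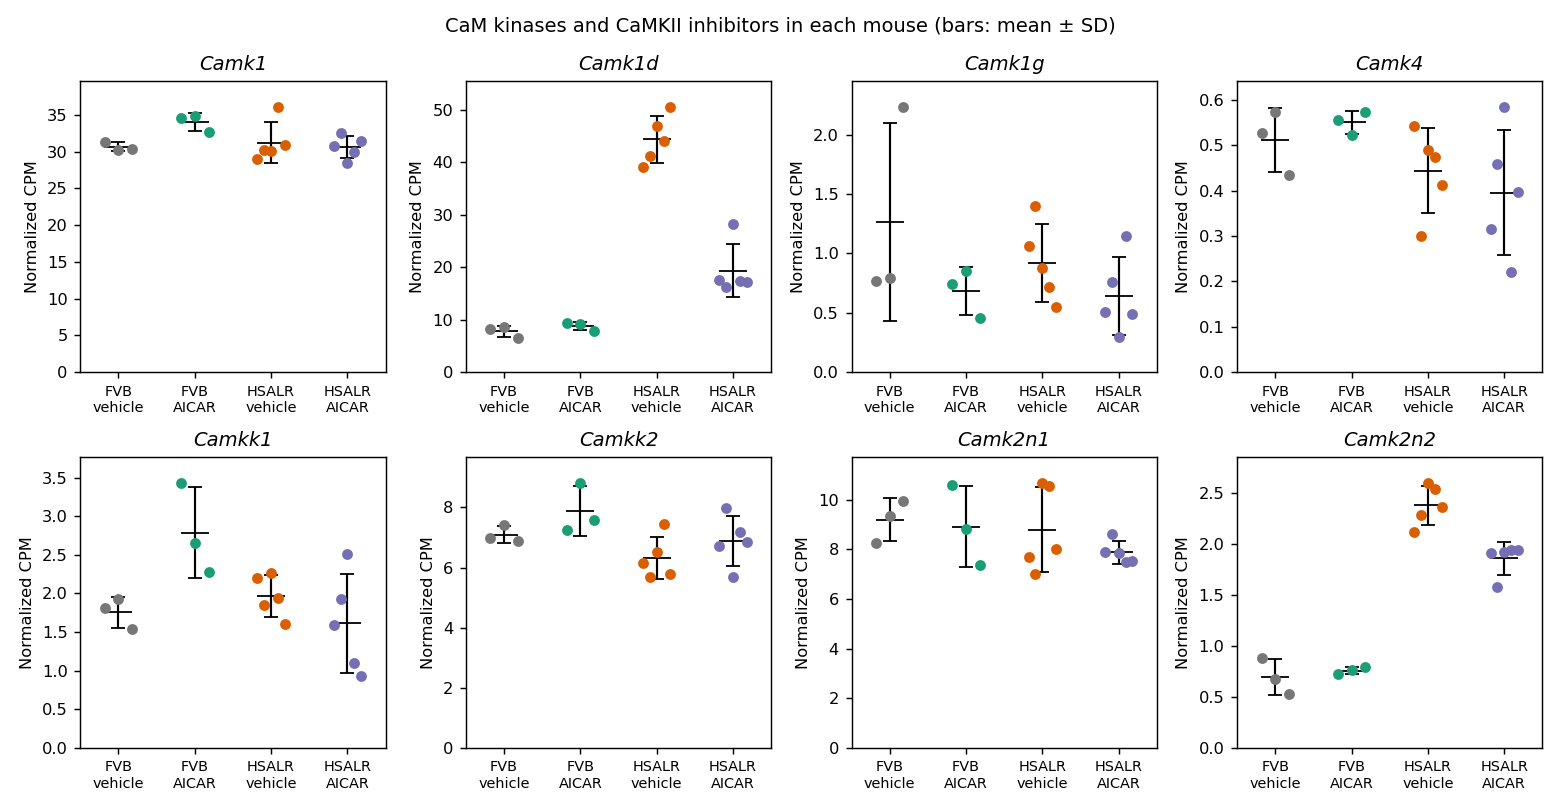
Normalized CPM (y axis, from 0) of the 8 genes in each of the 16 mice, in 1 panel per gene, with the 4 groups on the x axis; points are mice, and the black bars are the mean ± SD. In the *Camk1d* panel the vehicle-treated HSALR mice lie between 39.1 and 50.4, the treated HSALR mice between 16.2 and 28.2, and all FVB mice at or below 9.26; in the *Camk2n2* panel both HSALR groups lie above all FVB mice.

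Among the upstream kinases, *Camkk2* passed no comparison and *Camkk1* differed between the genotypes after AICAR. *Camkk2* (Entrez 207565, GRCm38 chr5:122718380-122779522, minus strand), the kinase that can also activate AMPK, was at 6.97, 7.41 and 6.88 CPM in FVB mice with vehicle and at 7.24, 8.81 and 7.59 CPM in FVB mice with AICAR. In HSALR mice it was at 6.15, 5.68, 6.51, 7.44 and 5.78 CPM with vehicle and at 6.71, 7.98, 5.68, 7.19 and 6.85 CPM with AICAR. The ranges of the groups overlapped in all 4 pairwise comparisons, and the log2 fold changes lay between -0.20 and 0.15. For HSALR against FVB mice after vehicle, the 95% interval of the *Camkk2* log2 fold change ran from -0.40 to 0.07 (adjusted p = 0.295, edgeR's quasi-likelihood test, Benjamini-Hochberg over all genes, as for every adjusted p of a single gene below).

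*Camkk1* (Entrez 55984, GRCm38 chr11:73016043-73042073, plus strand), the other CaM kinase kinase, was at 1.81, 1.93 and 1.54 CPM in FVB mice with vehicle and at 3.43, 2.66 and 2.28 CPM in FVB mice with AICAR. In HSALR mice it was at 2.20, 1.85, 2.27, 1.94 and 1.60 CPM with vehicle and at 1.59, 1.93, 2.50, 1.09 and 0.933 CPM with AICAR. The treated FVB mice were all above the untreated FVB mice, whereas the treated HSALR mice spread from below to above the untreated ones. After AICAR, *Camkk1* was 1.73-fold lower in HSALR than in FVB mice (log2 fold change -0.79, SE 0.25, adjusted p = 0.035). This difference missed the threshold without S447 (log2 fold change -0.61, adjusted p = 0.162) or S448 of the treated FVB mice, without S454, S462 or S463 of the treated HSALR mice (adjusted p of these other 4 fits 0.063 to 0.073), and without the 6 libraries with epidermal RNA (log2 fold change -0.82, adjusted p = 0.119). It was also lost with *Tbp* as scaling gene (-0.83, adjusted p = 0.065) and when only the 2 groups compared were fitted (-0.80, adjusted p = 0.087). AICAR itself changed *Camkk1* by a log2 fold change of 0.67 in FVB mice (adjusted p = 0.137) and of -0.29 in HSALR mice (adjusted p = 0.372), neither past the threshold. The difference between these AICAR effects, -0.95 (SE 0.36, adjusted p = 0.237), did not pass either.

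Of the 3 CaMKI genes among the members, *Camk1* passed no comparison and was the highest per length, *Camk1d* was raised in HSALR muscle and fell with AICAR there, and *Camk1g* was low and passed no comparison. *Camk1d* encodes CaMKI delta. RefSeq places it at GRCm38 chr2:5293457-5714860 on the minus strand (Entrez 227541), with 4 curated mRNAs and start sites at the far end of the gene and within it, which the counts per gene do not separate. The bases before these starts are shown with those before the start of *Camk2n2*, since these were the members that were both higher in HSALR mice. The sequences are from RefSeq (GRCm38.p6), read 5′ to 3′ on the minus strand and ending upstream of transcribed bases for the outer *Camk1d* start and for *Camk2n2*. Capitals mark the GC-box letters GGGCGG on either strand.
Camk1d, outer start, chr2:5714861-5715012: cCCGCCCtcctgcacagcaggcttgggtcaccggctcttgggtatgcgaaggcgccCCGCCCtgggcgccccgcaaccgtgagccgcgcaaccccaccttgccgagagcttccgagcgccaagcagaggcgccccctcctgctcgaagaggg
Camk1d, inner start, chr2:5676047-5676296: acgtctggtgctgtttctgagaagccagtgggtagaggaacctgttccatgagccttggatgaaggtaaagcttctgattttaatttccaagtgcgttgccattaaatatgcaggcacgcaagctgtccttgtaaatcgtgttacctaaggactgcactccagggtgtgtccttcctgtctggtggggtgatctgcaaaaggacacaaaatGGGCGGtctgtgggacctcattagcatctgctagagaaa
Camk2n2, chr16:20621279-20621528: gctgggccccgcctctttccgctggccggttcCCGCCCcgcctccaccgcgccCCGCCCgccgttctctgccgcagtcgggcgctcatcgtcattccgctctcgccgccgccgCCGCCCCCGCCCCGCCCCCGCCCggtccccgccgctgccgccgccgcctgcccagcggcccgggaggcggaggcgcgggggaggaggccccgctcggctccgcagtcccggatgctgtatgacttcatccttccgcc

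In the 250 bases before each start, of which 152 are printed for the outer *Camk1d* start, GGGCGG had 2 matches at the outer *Camk1d* start, 1 at the inner *Camk1d* start and 6 at *Camk2n2*. CG dinucleotides numbered 22 at the outer *Camk1d* start and 39 at *Camk2n2*, and the inner *Camk1d* start had 5, against a median of 6 over the 32851 start sites of the same table. GGGCGG on either strand occurred in 32.7% of those windows. The E-box letters CAGCTG (13.0% of windows), the CREB-site letters TGACGTCA (1.55%) and the MEF2-like letters TAAAAATA (2.45%), each searched on both strands, matched none of the 3 windows, so no motif overlapped another. These matches describe letters only.

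*Camk1d* was at 8.27, 8.52 and 6.54 CPM in the FVB mice with vehicle, from 481 to 668 counts, and at 9.26, 9.08 and 7.89 CPM in the FVB mice with AICAR. In HSALR mice with vehicle it was at 39.1, 41.2, 46.9, 44.1 and 50.4 CPM, from 2813 to 3782 counts. With AICAR the HSALR mice S454, S455, S460, S462 and S463 had 17.6, 16.2, 28.2, 17.4 and 17.2 CPM. No HSALR mouse reached down to the FVB range, and no treated HSALR mouse reached up to the untreated ones, with S460 standing above the other 4 treated mice.

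For HSALR against FVB mice, the *Camk1d* log2 fold change was 2.51 (SE 0.17, adjusted p = 1.8e-07) after vehicle and 1.14 (SE 0.16, adjusted p = 2.0e-04) after AICAR. By p-value *Camk1d* was number 22 of the 15487 genes tested after vehicle. The value after vehicle stayed between 2.40 and 2.58 whichever single mouse was left out, and S451, the vehicle-treated HSALR mouse with *Krt14* below 1 CPM, had 39.1 CPM. Without all 6 libraries with epidermal RNA the log2 fold change was 2.22 (adjusted p = 0.0020).

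AICAR lowered *Camk1d* in HSALR mice by a log2 fold change of -1.20 (SE 0.14, adjusted p = 2.5e-05). Leaving out S460 gave -1.37, and leaving out the 6 libraries with epidermal RNA gave -1.02 (adjusted p = 0.0385). In FVB mice the log2 fold change with AICAR was 0.17 (95% interval -0.21 to 0.55, adjusted p = 0.582). The AICAR effects of the genotypes differed by -1.37 on the log2 scale (SE 0.23, adjusted p = 0.0183), and *Camk1d* was the 1 member of 8 to pass this test, against 0.691% of all genes tested (0.484% with a negative difference). The difference missed the threshold without S448 of the treated FVB mice (-1.33, adjusted p = 0.0553) and without the 6 libraries with epidermal RNA (-1.04, adjusted p = 0.390).

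*Camk1* (Entrez 52163, GRCm38 chr6:113334124-113343922, minus strand) encodes CaMKI alpha, the widely expressed member of the family. It was at 31.4, 30.2 and 30.4 CPM in FVB mice with vehicle and at 34.6, 34.9 and 32.6 CPM with AICAR. In HSALR mice it was at 29.0, 30.1, 30.0, 36.0 and 30.9 CPM with vehicle and at 30.8, 32.5, 28.4, 30.0 and 31.5 CPM with AICAR. All groups lay close together, with S458 above the other vehicle-treated HSALR mice and the treated FVB mice above both the untreated FVB and the treated HSALR mice, and *Camk1* passed no comparison. The log2 fold change for HSALR against FVB mice was 0.03 after vehicle, with a 95% interval from -0.11 to 0.17, and -0.15 after AICAR (adjusted p = 0.108). After AICAR it passed when S458 was left out (adjusted p = 0.0351), and after vehicle it passed with *Tbp* as scaling gene (log2 fold change 0.30, adjusted p = 0.0265), a scaling that moved the median of all genes to 0.28. The same scaling made it pass with AICAR in FVB mice (0.35, adjusted p = 0.0395), where the median of all genes moved to 0.19. Exons of *Camk1* overlap exons of *Ogg1*, a DNA repair gene on the opposite strand, and the sources used here do not say whether strand was used in counting.

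*Camk1g* (Entrez 215303, GRCm38 chr1:193346346-193370355, minus strand), the gene of CaMKI gamma, rested on 21 to 164 counts per library. In FVB mice it was at 0.768, 0.791 and 2.23 CPM with vehicle and at 0.739, 0.851 and 0.458 CPM with AICAR. In HSALR mice it was at 1.06, 1.40, 0.875, 0.719 and 0.546 CPM with vehicle and at 0.507, 0.755, 0.299, 1.15 and 0.489 CPM with AICAR. The highest value, that of S450 among the vehicle-treated FVB mice, came from a library with epidermal RNA. The other libraries with epidermal RNA ranged from 0.546 (S459) to 1.40 CPM (S452), and the part of epidermal RNA in the value of S450 was not tested. The log2 fold change for HSALR against FVB mice after vehicle was -0.46 (95% interval -1.37 to 0.45) and turned to 0.24 without S450, so no difference was detected for *Camk1g* and its sign was not settled.

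*Camk4* (Entrez 12326) encodes CaMKIV, a mostly nuclear kinase known from neurons and T cells, and was the lowest member, with 17 to 45 counts per library. The FVB mice had 0.526, 0.574 and 0.435 CPM with vehicle and 0.555, 0.524 and 0.573 CPM with AICAR. The HSALR mice had 0.543, 0.299, 0.489, 0.475 and 0.413 CPM with vehicle and 0.315, 0.458, 0.583, 0.221 and 0.398 CPM with AICAR. The groups overlapped in every comparison, and *Camk4* passed none of them (log2 fold change after vehicle -0.21, 95% interval -0.78 to 0.37, and after AICAR -0.48, 95% interval -1.05 to 0.09). Summed T cell markers, with all 6 detected, were 5.20 to 11.5 CPM in FVB mice and 3.87 to 6.47 CPM in HSALR mice, and their part in the *Camk4* level was not tested. Its exons overlap an antisense gene, *2310026I22Rik*.

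Of the inhibitor genes, *Camk2n2* was higher in HSALR muscle with either treatment, and *Camk2n1* passed no comparison. *Camk2n2* (Entrez 73047, GRCm38 chr16:20619215-20621278, minus strand) encodes CaMKII inhibitor 2. It was at 0.882, 0.676 and 0.530 CPM in the FVB mice with vehicle and at 0.725, 0.759 and 0.788 CPM in those with AICAR, which were 39 to 62 counts per library. The HSALR mice had 2.12, 2.28, 2.59, 2.53 and 2.36 CPM with vehicle (152 to 208 counts) and 1.91, 1.57, 1.92, 1.94 and 1.94 CPM with AICAR (127 to 149 counts). Every HSALR mouse was above every FVB mouse, and every treated HSALR mouse was below every untreated one.

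The log2 fold change of *Camk2n2* for HSALR against FVB mice was 1.77 (SE 0.15, adjusted p = 1.4e-06) after vehicle and 1.29 (SE 0.15, adjusted p = 3.9e-05) after AICAR. Both kept their call in all 16 fits that left out a mouse and without the 6 libraries with epidermal RNA, where the values were 1.44 (adjusted p = 0.0075) and 1.29 (adjusted p = 0.0021). AICAR lowered *Camk2n2* in HSALR mice by a log2 fold change of -0.36 (SE 0.12, adjusted p = 0.0413), 1.28-fold. That call was lost when any HSALR mouse except S451 was left out (-0.37 to -0.30, adjusted p from 0.053 to 0.101), without the 6 libraries with epidermal RNA (-0.19, adjusted p = 0.643) and without the filter on low counts (-0.36, adjusted p = 0.061). In FVB mice the AICAR log2 fold change was 0.12 (95% interval -0.24 to 0.48), and the difference between the genotypes' AICAR effects was -0.48 (SE 0.21, adjusted p = 0.293).

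*Camk2n1* (Entrez 66259, GRCm38 chr4:138455148-138460126, plus strand) encodes CaMKII inhibitor 1. In FVB mice it was at 8.27, 9.36 and 9.97 CPM with vehicle and at 10.6, 8.81 and 7.36 CPM with AICAR. In HSALR mice it was at 7.70, 7.03, 10.7, 10.6 and 8.02 CPM with vehicle and at 7.90, 8.63, 7.84, 7.51 and 7.53 CPM with AICAR. The groups overlapped throughout, and the 95% interval of the log2 fold change for HSALR against FVB mice after vehicle was -0.36 to 0.24 (adjusted p = 0.779).

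Counted over the list, 3 of 8 members passed in HSALR against FVB mice after AICAR, *Camk1d* and *Camk2n2* higher and *Camkk1* lower, against 21.8% of all genes tested (12.2% higher, 9.64% lower). For AICAR against vehicle in HSALR mice, 2 of 8 passed, *Camk1d* and *Camk2n2*, both lower, against 26.6% (13.7% higher, 13% lower). In FVB mice AICAR changed 0 of 8 members by edgeR's quasi-likelihood test, by DESeq2 and by limma voom, against 13.2% of all genes (8.4% higher, 4.77% lower), and 1 member, *Camkk1*, had an unadjusted p under 0.05 from edgeR. The median log2 fold change of the members was -0.17, -0.23 and 0.14 in these 3 comparisons, and 0.00, -0.02 and -0.01 over all genes tested. Without the 6 libraries with epidermal RNA, 2 members passed for the genotypes after vehicle and 2 after AICAR (*Camk1d* and *Camk2n2*), against 5.80% and 15.5% of all genes tested in that fit. In the same fit 1 passed for AICAR in HSALR mice (*Camk1d*, against 5.77%), 0 for AICAR in FVB mice (against 4.47%) and 0 for the difference of the AICAR effects, where 0 of all genes passed. The comparisons of genotype and of AICAR share groups of mice, so their values are set side by side only.

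**Figure D2:**
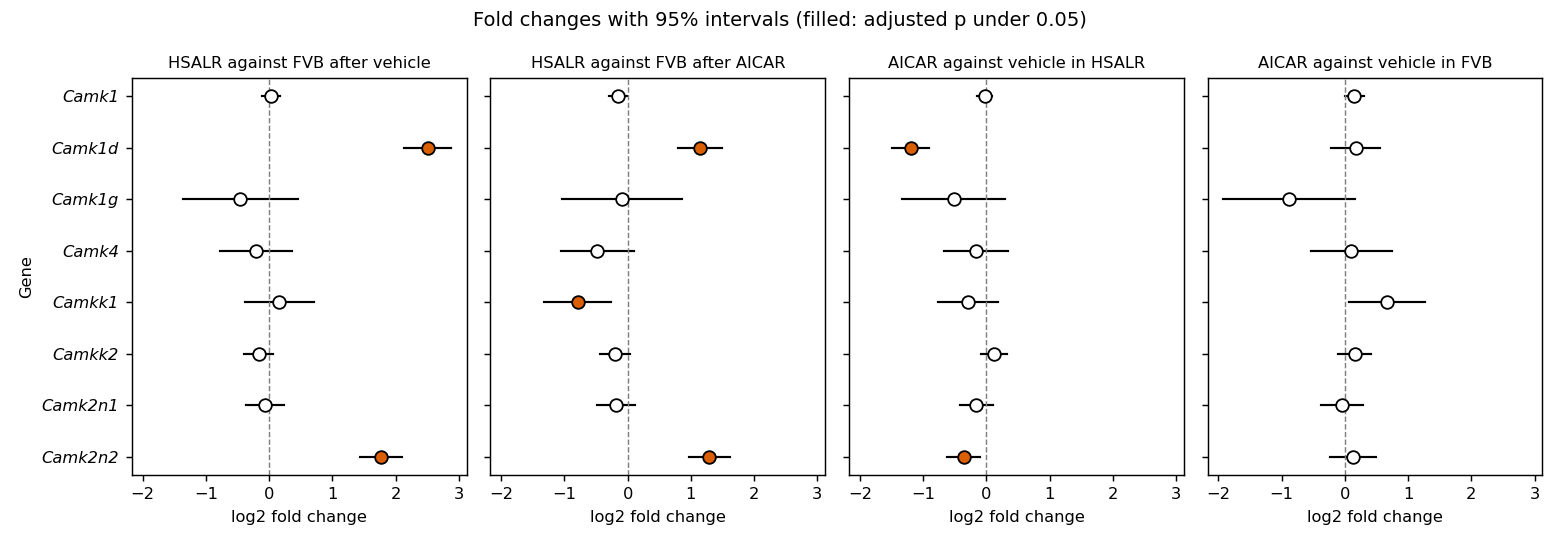
Log2 fold changes (x axis) of the 8 genes (y axis) in the 4 pairwise comparisons, 1 panel each, with lines for 95% intervals and filled points for an adjusted p under 0.05 from edgeR's quasi-likelihood test. *Camk1d* lies at 2.51 after vehicle and 1.14 after AICAR for HSALR against FVB mice and at -1.20 for AICAR in HSALR mice, and the FVB panel on the right has no filled point.

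**Figure D3:**
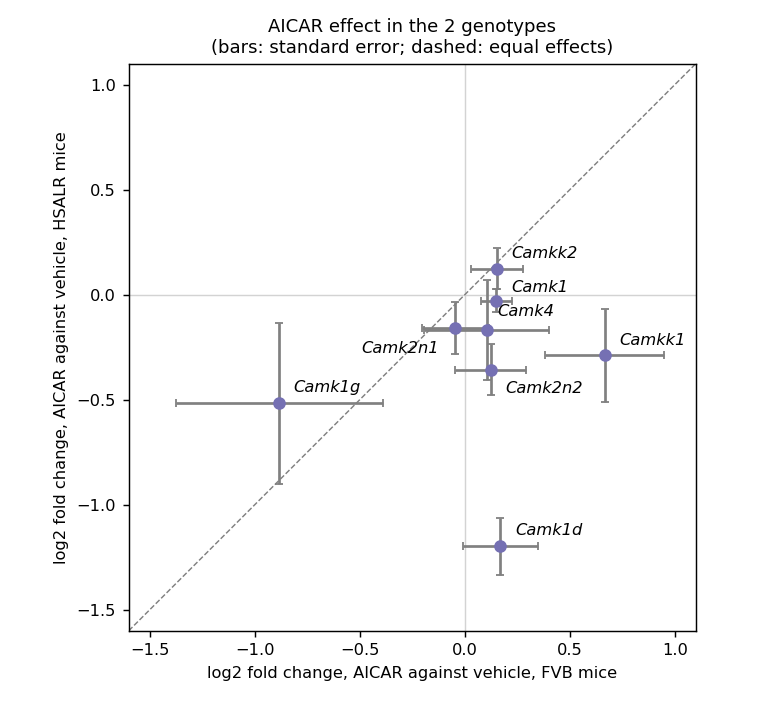
Log2 fold change with AICAR in FVB mice (x axis) against that in HSALR mice (y axis) for the 8 genes, with bars of 1 standard error and a dashed line where both effects would be equal; the axes share no mice. *Camk1d*, at 0.17 in FVB and -1.20 in HSALR mice, is the member farthest below the line.

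Per kilobase of gene length, the level of *Camk1* was 21.4 ± 0.43 CPM per kb (SD, n = 3) in FVB mice with vehicle, above all other members in each group. *Camk2n1* (2.55 ± 0.24), *Camkk2* (1.45 ± 0.058) and *Camk1d* (1.06 ± 0.15) followed there without overlapping ranges, and *Camk2n2*, *Camk1g* and *Camkk1*, at 0.543, 0.515 and 0.509 CPM per kb, were not separated from their neighbours in that order. *Camk4* was last in all groups, at 0.041 CPM per kb in these mice. In HSALR mice *Camk1d* moved up from 4th to 2nd place, with 6.04 ± 0.61 CPM per kb after vehicle (n = 5) and 2.63 ± 0.68 after AICAR (n = 5), where its range overlapped that of *Camk2n1* (2.18 ± 0.13). *Camk2n2* moved to 4th place, with 1.85 ± 0.15 CPM per kb after vehicle, overlapping *Camk2n1*, and 1.45 ± 0.12 after AICAR, overlapping *Camkk2*. Without the division by length, *Camk1d* had a higher mean than *Camk1* in HSALR mice with vehicle (44.3 against 31.2 CPM).

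Of the length-corrected counts of *Camk1*, *Camk1d* and *Camk1g* together, without *Pnck*, the gene of CaMKI beta, *Camk1d* made up 4.62% ± 0.66 (SD, n = 3) in FVB mice with vehicle and 21.5% ± 2.0 (n = 5) in HSALR mice with vehicle. With AICAR the share was 4.72% ± 0.22 (n = 3) in FVB mice and 10.9% ± 3.0 (n = 5) in HSALR mice. HSALR and FVB mice did not overlap with either treatment, each with an exact two-sided permutation p of 0.018, the smallest that 5 against 3 mice allow (adjusted p = 0.054 over the 12 tests of 3 such quantities). The share fell with AICAR in HSALR mice by 10.6 percentage points, without overlap of the ranges (exact two-sided permutation p = 0.0079, the smallest for 5 against 5 mice, adjusted p = 0.048). That call was lost when any HSALR mouse except S460 was left out (adjusted p = 0.069 to 0.071). Whichever mouse was left out, the change stayed between -11.9 and -9.94 points. Without the correction for gene length the change was -20.1 points and did not pass (adjusted p = 0.071). An adjusted p over 12 tests also depends on the other tests, so these lost calls do not mean a smaller fall of the share. The S460 mouse had 16.1% and the other 4 treated HSALR mice 8.78% to 9.99%. Without the 6 libraries with epidermal RNA, the share was 4.83% and 5.14% in the 2 FVB mice left with vehicle, 4.48% and 4.91% in the 2 with AICAR and 20.5% in S451, the single HSALR mouse left with vehicle.

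*Camkk2* was the larger part of the upstream pair, with 74.1% ± 1.6 (n = 3) of the length-corrected counts in FVB mice with vehicle and 69.3% ± 3.0 (n = 5) in HSALR mice with vehicle. The ranges did not overlap, and the difference did not pass after adjustment (exact two-sided permutation p = 0.036, adjusted p = 0.086). With AICAR the share was 66.7% ± 5.9 (n = 3) in FVB and 75.4% ± 8.8 (n = 5) in HSALR mice, with overlapping ranges. The share was 6.05 points higher with AICAR than with vehicle in HSALR mice, with overlapping ranges and no call (exact two-sided permutation p = 0.19, adjusted p = 0.254), and it passed without S460 (9.52 points, adjusted p = 0.048). In FVB mice the difference with AICAR was -7.37 points, without overlap of the ranges (exact two-sided permutation p = 0.1, the smallest for 3 against 3 mice, adjusted p = 0.171). The length-corrected counts of the inhibitor genes were far below those of the 4 *Camk2* genes together. The log2 ratio of *Camk2n1* plus *Camk2n2* to these 4 genes was -6.02 ± 0.14 in FVB mice with vehicle and -6.08 ± 0.34 in FVB mice with AICAR. In HSALR mice it was -5.62 ± 0.22 with vehicle and -5.92 ± 0.023 with AICAR. HSALR and FVB mice overlapped in this ratio with either treatment. It fell with AICAR in HSALR mice by 0.30 (exact two-sided permutation p = 0.0079, adjusted p = 0.048), a call that was lost when any HSALR mouse was left out (-0.37 to -0.24, adjusted p = 0.054 to 0.071) and without the correction for gene length (-0.20, adjusted p = 0.298). With the 6 libraries left out, the *Camkk2* share was 66.4% in S451, the single HSALR mouse left with vehicle, 73.1% in both FVB mice with vehicle, and 59.9% and 70.2% in the FVB mice with AICAR, which overlapped the 61.5% to 83.8% of the treated HSALR mice. The inhibitor ratio was then -5.67 in S451, above the -6.15 and -6.05 of the FVB mice with vehicle, whereas after AICAR the FVB mice, at -6.46 and -5.86, lay on either side of the treated HSALR mice (-5.95 to -5.90). These values without the 6 libraries were not tested.

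**Figure D4:**
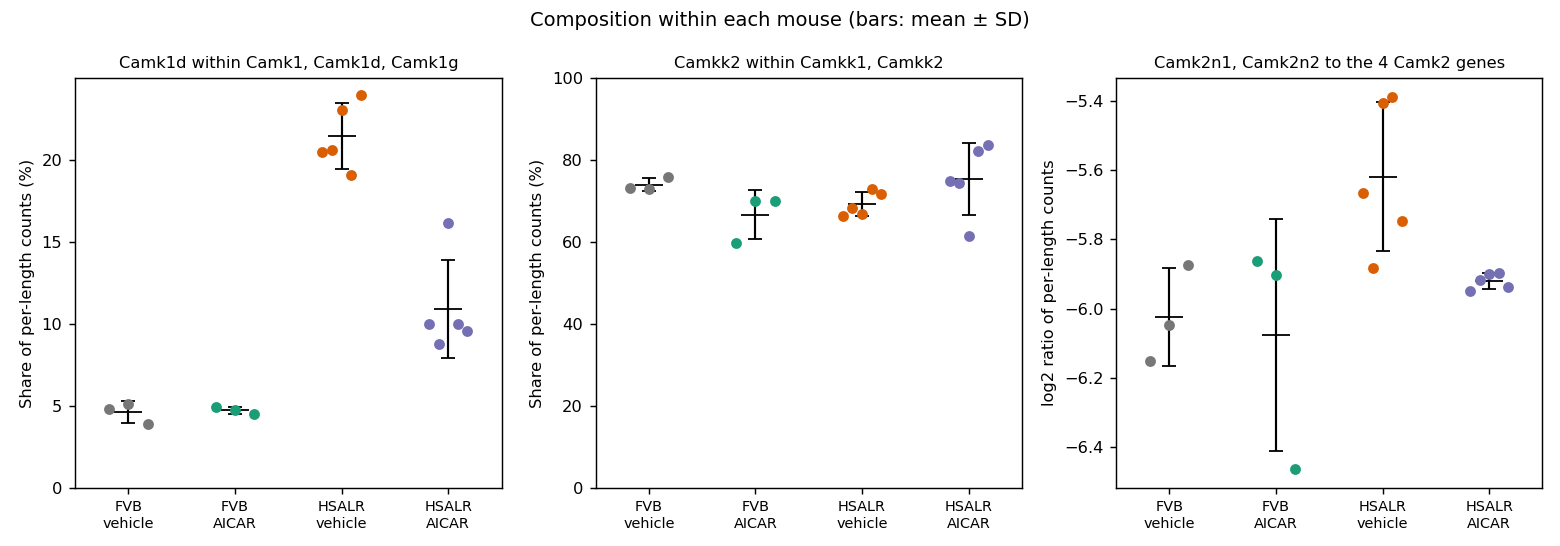
Composition of length-corrected counts in each of the 16 mice, by group on the x axis: the *Camk1d* share of *Camk1*, *Camk1d* and *Camk1g* in percent (left), the *Camkk2* share of the CaMKK genes in percent (middle), and the log2 ratio of the inhibitor genes to the 4 *Camk2* genes (right, an axis that does not start at 0); points are mice, black bars the mean ± SD. The *Camk1d* share is 19.1% to 24.0% in vehicle-treated HSALR mice and at most 5.14% in all FVB mice, whereas the right panel has overlapping genotypes.

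Other genes of CaM kinase signalling were read from a list of 48, all tested, which held calmodulins, the *Camk2* genes, calmodulin-binding buffers, CaM kinase phosphatases, calcineurin, AMPK with LKB1, and nuclear targets. After vehicle, 5 were higher and 12 lower in HSALR than in FVB mice, against 15.4% and 11.5% of all genes tested. Without the 6 libraries with epidermal RNA, 3 were higher and 4 lower, against 5.80% of all genes called in either direction. *Ppm1e*, a phosphatase that dephosphorylates CaM kinases, was higher by a log2 fold change of 1.82 (adjusted p = 2.3e-04), and *Camk2d*, a CaMKII gene, by 1.12 (adjusted p = 1.1e-05), as was *Rcan1*, a calcineurin regulator, by 0.77 (adjusted p = 0.0020). Of the 10 genes of AMPK and LKB1, a further upstream activator of AMPK, 6 were lower, beside the 11.5% of all genes, among them the AMPK subunit gene *Prkab2* (-0.95, adjusted p = 1.2e-05). Without the 6 libraries, a fit with a sole vehicle-treated HSALR mouse, *Prkaa2*, *Prkab2* and *Prkag1*, all AMPK subunit genes, kept their call (-0.49, -0.93 and -0.33). *Prkab1*, *Stradb* and *Cab39* lost theirs. Their log2 fold changes were -0.35, -0.18 and -0.28 with all libraries and -0.46, -0.08 and -0.16 without the 6. *Pcp4l1*, a calmodulin-binding protein gene (-0.65, adjusted p = 0.0399), and *Crtc2*, a coactivator of CREB (-0.44, adjusted p = 3.6e-04), were lower too. Both lost their call without the 6 libraries, with log2 fold changes of -0.73 and -0.48 there.

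After AICAR, 4 of the 48 were higher in HSALR than in FVB mice and 11 lower, against 12.2% and 9.64% of all genes tested. With the libraries with epidermal RNA left out, 3 were higher and 8 lower, against 15.5% called in either direction. The higher genes were led by *Hdac4* (log2 fold change 0.70), a histone deacetylase that CaM kinases drive out of the nucleus, *Camk2b* (0.51) and *Camk2d* (0.41). The lower genes were led by *Prkag3*, an AMPK subunit of glycolytic muscle (-0.97), *Ppargc1a*, a coactivator of oxidative metabolism (-0.87), and *Pcp4l1* (-0.82). Of these 6, *Camk2d* and *Pcp4l1* lost their call without the 6 libraries, with log2 fold changes of 0.36 and -0.66 there.

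AICAR changed 24 of the 48 in HSALR mice, 13 higher and 11 lower, against 13.7% and 13% of all genes tested. Without the 6 libraries with epidermal RNA, 2 were higher and 4 lower, and the genes called among all tested fell from 4121 to 899, which was 5.77%. *Ppargc1a* (0.74), *Hdac4* (0.73) and *Prkab2* (0.72) were higher and *Prkag3* (-1.55), *Pcp4l1* (-1.17) and *Ppm1e* (-0.91) lower. Without the 6 libraries, a fit with a sole vehicle-treated HSALR mouse, these 6 had log2 fold changes of 0.84, 0.67, 0.62, -1.41, -1.01 and -1.57 in this order. *Ppargc1a*, *Hdac4* and *Pcp4l1* lost their call there. In FVB mice AICAR raised 3 of the 48, *Ppargc1a* (1.66), *Crem* (0.68), a CREB-family repressor and activator, and *Camk2b* (0.27), and lowered 3, *Pcp4l1* (-1.01), *Pnck* (-0.63), and *Crtc3*, a CREB coactivator (-0.42), against 8.4% of all genes higher and 4.77% lower. With the 6 libraries left out, *Ppargc1a* and *Crem* stayed called as higher and *Pnck* and *Crtc3* as lower. *Camk2b* and *Pcp4l1* lost their call, with log2 fold changes of 0.34 and -1.07 there. Of the 48, *Crem* alone had AICAR effects that differed between the genotypes (-1.07, adjusted p = 0.0141), against 0.691% of all genes tested, and without the 6 libraries it did not (-0.95, adjusted p = 0.160).

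Across the 16 libraries, the genes whose log2 CPM followed *Camk1d* most closely among 12511 genes with a mean of at least 1 CPM were *Cpne2*, *Rnf115* and *Tmem158*, with Pearson's r of 0.979, 0.975 and 0.975. Those closest to *Camk2n2* were *Myo1a*, *D330023K18Rik* and *Eef1g* (0.975, 0.974 and 0.972), and *Camk1d* and *Camk2n2* followed each other with r = 0.932. The points share the 4 groups, so differences between group means enter these values, and no correlation within groups was computed. For the other members the closest genes had lower values: *Tspan6* for *Camk1* (0.778), *St6gal1* for *Camkk2* (0.855), *Tspyl4* for *Camk1g* (0.883), *Frmd4a* for *Camk4* (0.886), *Nbl1* for *Camk2n1* (0.899) and *Atp8b2* for *Camkk1* (0.907). *Ecscr*, a gene of endothelial cells, was the second closest to *Camkk2* (0.853).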

How the data were processed

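Single-end RNA-seq reads of 16 *gastrocnemius* samples were mapped by the authors to mm10 with STAR 2.5.2a, keeping a single location per read, and reads starting within RefSeq exons were counted per gene with QuasR. The deposited values are these raw counts per gene, as whole numbers, beside a gene length used here for levels per kilobase. Entrez identifiers were matched to RefSeq symbols (GRCm38.p6) for 24374 of 24454 genes. Whether counting used the strand is not given in the sources used here.

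Groups were taken from the labels. The analysis used edgeR 4.0.16 (R 4.3.3): TMM scaling, filterByExpr over the 4 groups, and glmQLFit with glmQLFTest on all 16 libraries with 1 mean per group, Benjamini-Hochberg adjustment over 15487 genes and a threshold of 0.05. The study names edgeR without a design. The test was also run on simulated counts of 15320 to 15349 genes. In these, 200 genes with a mean above 1 CPM were changed by a log2 fold change of at least 1 in size. The test recovered 191, 180, 188, 188 and 166 of these for the genotypes after vehicle and AICAR, AICAR in HSALR and FVB mice and the difference, with 7 to 10 false calls. Smaller changes and changes in genes at lower levels were not simulated, so this recovery does not apply to them. Shares and ratios were compared by exact two-sided permutation tests over mice, adjusted over 12 tests. Mice are separate animals, and the labels give no batch.

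The members, gene lists and alternatives were chosen with earlier results of these data known. The text names all 8 members, for each comparison up to 3 higher and 3 lower listed pathway genes with the largest change past the threshold, and the 3 genes most like *Camk1d* and *Camk2n2*, with the closest gene for each other member. *Ecscr*, 5 AMPK and LKB1 genes (*Prkaa2*, *Prkag1*, *Prkab1*, *Stradb* and *Cab39*), and *Ogg1* and *2310026I22Rik* as overlapping genes were added after values or positions were seen. Likeness was Pearson's r of log2(CPM + 0.1). Alternatives were DESeq2 1.42.0, limma 3.58.1 with voom, RLE and upper-quartile scaling, *Tbp* as scaling gene, all genes with no low-count filter, at least 10 counts in every library, only the groups compared, no length correction, and leaving out each mouse. Leaving out the 6 libraries above 1 CPM of *Krt14*, which left 15584 genes tested, was chosen after seeing the data.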

Additional observations from a re-analysis of the deposited data

Results flagged for a closer look

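Of 22 groups of 5 mice examined for a mouse far from the other 4, 4 had such a mouse, where chance flags about 1 in 20 groups. *Camk1* was at 36.0 CPM in S458 of the vehicle-treated HSALR mice, with the other mice at 29.0 to 30.9. *Camk1d* was at 28.2 CPM in S460 of the AICAR-treated HSALR mice, with the others at 16.2 to 17.6, and the *Camk1d* share of *Camk1*, *Camk1d* and *Camk1g* in S460 was 16.1%, with the others at 8.78% to 9.99%. *Camk2n2* was at 1.57 CPM in S455 of the AICAR-treated HSALR mice, with the others at 1.91 to 1.94.

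The AICAR effect on *Camk1d* differed between the genotypes by the test of the difference itself (log2 difference -1.37, adjusted p = 0.0183, edgeR's quasi-likelihood test, Benjamini-Hochberg over all genes). The call was lost without S448 (-1.33, adjusted p = 0.0553) and without the 6 libraries above 1 CPM of *Krt14* (-1.04, adjusted p = 0.390).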

How the results depend on the processing

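No paired analysis was possible because mice of different groups share no number. The *Camk1d* and *Camk2n2* differences between the genotypes, with either treatment, and the fall of *Camk1d* with AICAR in HSALR mice kept direction and call in all alternatives run. Counts of 17 to 164 per library limit *Camk1g* and *Camk4*.

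Scaling to *Tbp* moved the median log2 fold change of all genes to 0.28 and -0.037 for the genotypes after vehicle and AICAR, -0.13 and 0.19 for AICAR in HSALR and FVB mice, and -0.32 for the difference. It moved the share of higher calls from 57.2% to 95.4%, from 51.3% to 25.2%, from 63.8% to 94.3% and from 29.9% to 1.57% in the comparisons other than the genotypes after AICAR, and upper-quartile scaling moved it to 45.1% for AICAR in FVB mice and 40.7% for the difference. With *Tbp*, after vehicle, *Camk4* (0.052), *Camkk2* (0.096) and *Camk2n1* (0.19) changed sign and *Camk1* was called (0.30, 3 members in all, beside 5295 genes); *Camk2n1* changed sign with AICAR in FVB mice (0.16), where *Camk1* was the 1 member called, beside 2150 genes; 1396 genes were called for the genotypes after AICAR and 381 for the difference.

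Without the 6 libraries with epidermal RNA, 904, 899, 697 and 0 genes were called for the genotypes after vehicle, AICAR in HSALR and FVB mice and the difference, with 1 member called for AICAR in HSALR mice and 0 for the difference. Uncalled values then changed sign for *Camk1* (-0.091) and *Camk1g* (0.43) after vehicle, *Camk1g* after AICAR (0.10), *Camk1* (0.074) and *Camk2n1* (0.031) with AICAR in HSALR mice, *Camk2n1* (0.016) and *Camk2n2* (-0.049) with AICAR in FVB mice, and *Camk1g* (-0.33), *Camkk2* (0.13) and *Camk2n1* (0.015) for the difference. DESeq2 called 536 genes for the difference, fitting only the groups compared called 1164 for AICAR in FVB mice, and without the filter on low counts 1 member was called for AICAR in HSALR mice, as *Camk2n2* lost its call. Without length correction the *Camk1d* share fell by 20.1 points with AICAR in HSALR mice (adjusted p = 0.071), and the inhibitor log2 ratio was -0.087 for the genotypes after AICAR and -0.20 for AICAR in HSALR mice. The cause of these changes was not tested.

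Leaving out each mouse gave 2214 (without S447) to 3790 genes for the genotypes after AICAR, 1143 (without S449; 1214 without S445 and 1344 without S448) to 2186 for AICAR in FVB mice, and 15 (without S448) to 371 (without S460) for the difference, where 10 other mice gave 20 to 70 (S445, S446, S447, S450, S452, S453, S454, S455, S462 and S463), with 1 to 2 members for AICAR in HSALR mice and 0 to 1 for the difference. Ranges that crossed 0 were, after vehicle, -0.71 to 0.24 (*Camk1g*) and -0.030 to 0.044 (*Camk1*); after AICAR, -0.41 to 0.10 (*Camk1g*) and -0.037 to 0.26 (inhibitor ratio); AICAR in HSALR mice, -0.050 to 0.029 (*Camk1*); AICAR in FVB mice, -0.19 to 0.077 (*Camk2n1*), -0.00083 to 0.20 (*Camk4*), -0.039 to 0.33 (*Camk2n2*), -0.16 to 0.14 (inhibitor ratio) and -0.26 to 0.37 points (*Camk1d* share); and for the difference, -0.24 to 0.027 (*Camk2n1*), -0.088 to 0.072 (*Camkk2*) and -0.33 to 0.62 (*Camk1g*). With AICAR in HSALR mice the *Camk1d* share moved by -11.9 to -9.94 points, the inhibitor ratio moved by -0.37 to -0.24 and the *Camkk2* share rose by 3.94 to 9.52 points.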
